A study of Mus musculus with 7 samples.

Results

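Coarse cluster 1 is a population of uterine cells defined only by its number in the authors' clustering. Its members are the cells that the authors' Louvain clustering, a method that groups cells by shared neighbours, put in cluster 1 at the lowest of its resolutions (0.2). They number 13325 of 107443 cells (12.4%). The population was singled out because its share of inter-implantation cells was higher late in gestation in control mice, so that pattern is described below without a test. The table used here carries no gene level, so no marker could be read and the population keeps its number in place of a cell type name.

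The study set Kdm6b cKO mice against control mice through pregnancy by single-cell RNA sequencing of dissected uterus. Kdm6b cKO and control specimens came from inter-implantation sites on gestation days 5, 8, 12, 14, 16 and 18 and from implantation site myometrium/endometrium on days 12, 14, 16 and 18. Day 0 stands for non-pregnant cKO and control mice that had received progesterone at 0.2 mg per day for 3 days, sampled as inter-implantation tissue. The abbreviation cKO commonly stands for conditional knockout; neither the Cre driver nor the cells that lose Kdm6b are stated in the labels, and Kdm6b itself could not be read from a table without gene levels. Each replicate of day 0 and day 5 pooled the uteri of 2 mice. A specimen, meaning a genotype, site, day and experimental batch, was the replicate. There were 28 specimens, 14 per genotype, of which 13 per genotype were pregnant. Whether specimens of different sites came from the same mice is not stated, so p-values measure the spread between specimens, which may not all be independent.

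Kdm6b encodes a histone demethylase that removes a repressive chromatin mark. In pregnancy the uterine wall grows and its muscle stays quiet until labour, while the lining at implantation sites turns into decidua and segments between them do not.

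The specimens held 1769 to 5720 cells each and were hashed, that is tagged with specimen-specific oligonucleotides, and mixed in 7 pools of 8 to 12 specimens. The cKO specimens gave 53170 cells and the control specimens 54273. Batch 1 held myometrium/endometrium alone, batch 2 the whole inter-implantation series from day 12 onward, and batch 3 that of days 0, 5 and 8. Specimens were split over repeat lanes, and the share of coarse cluster 1 differed between the lanes of a specimen by a median of 1.495 percentage points. The largest such gap was in the batch 1 cKO myometrium/endometrium specimen of day 12, with 10.2% and 14.3%. In all, 1336 cell barcodes occurred in more than 1 pool, and 323 member cells (2.42%) carried such a barcode. Every value is a share of recovered cells after freezing and digestion, so more cells of the population and fewer other cells cannot be told apart.

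At the highest resolution (2) the population divided into 6 finer clusters with at least 1% of its cells each, which together held 99.2% of it. Finer cluster 3 was the largest, with 5329 cells (40.0%), followed by finer cluster 8 with 3579 cells (26.9%). Finer cluster 24 held 1627 cells (12.2%) and finer cluster 20 held 1607 (12.1%). Finer cluster 27 held 939 cells (7.05%) and finer cluster 9 held 143 (1.07%), and another 8 finer clusters shared 101 cells (0.758%).

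The finer clusters differed in how fully they lay within the coarse cluster. All cells of finer cluster 3, 99.5% of finer cluster 8 and 99.9% of finer cluster 24 were members. Finer cluster 20 lay inside for 85.6% of its cells and finer cluster 27 for 66.0%. Coarse cluster 5 took 255 of the 270 cells of finer cluster 20 outside and 384 of the 483 of finer cluster 27. Only 3.99% of finer cluster 9 fell in coarse cluster 1, and its other 3441 cells were in coarse cluster 5. Coarse cluster 5 was also the nearest other coarse cluster over the authors' 5 deposited principal components, at a distance of 4.46 between median positions, against 13.9 for each of the next nearest (coarse clusters 15 and 9). The division depended on the resolution: at 0.4 a single cluster held 71.5% of the members, and at 0.8 to 2 the largest held 38.5% to 43.4%.

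Members had a median of 5799 UMIs (unique molecular identifiers, which count RNA molecules) per cell, against 6061 in all cells. Their median gene number was 2052, against 1983 in all cells. Mitochondrial genes gave a median of 2.89% of a member's UMIs, against 2.63% in all cells, and ribosomal protein genes gave 17.8%, against 21.6%. The authors called 13.2% of the members S phase, the phase of DNA replication, against 9.73% of all cells. G2M phase, which leads into and includes division, was called in 13.4% of members and 13.5% of all cells. These values describe cells grouped on their own genes, so no test was made between clusters.

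The finer clusters stood further apart from each other than the population did from all cells. Finer cluster 3 had a median of 5528 UMIs and 3.16% mitochondrial UMIs, with 10.9% of its cells called S and 2.46% called G2M. Its median ribosomal protein share was 16.2%. Finer cluster 8 had 4909 UMIs, 2.53% mitochondrial UMIs and a higher ribosomal protein share of 20.7%, with 13.5% S and 5.64% G2M calls. The G1 call, which these pipelines give to cells with neither programme, covered 86.7% of finer cluster 3 and 80.9% of finer cluster 8.

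Finer cluster 24 held most of the cells called G2M. Of its 1627 cells, 71.1% were called G2M, 23.9% S and 4.98% G1, with medians of 9177 UMIs and 2914 genes. It supplied 1157 of the 1780 G2M calls in the population. Of the 1758 S calls it supplied 389, fewer than finer cluster 3 (580) or finer cluster 8 (482). Across the 23 specimens with at least 10 of its cells, the share called G2M ran from 59.5% to 93.3%, with a median of 71.4%. Phase calls rest on scores from cells of unequal depth, which were not thinned to equal UMIs, so they are given as the authors' calls.

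Finer clusters 20 and 27 lay at opposite ends in depth. Finer cluster 20 had a median of 14890 UMIs and 3550 genes per cell, and 89.5% of its cells were called G1. Its specimen medians ran from 11423 to 18076 UMIs, above those of finer cluster 3, which ran from 1768 to 7238. By median position over the 5 principal components the coarse clusters nearest to it were 13 (distance 9.31), 15 (10.2) and 6 (11.8), so coarse cluster 1 was not among its 3 nearest. Doublets were not called again, and the part of joined cells in finer cluster 20 was not tested. Finer cluster 27 had a median of 1073 UMIs and 598 genes, with 45.2% of its cells under 1000 UMIs and a median mitochondrial share of 7.06%. Its 3 nearest coarse clusters were 15 (distance 4.66), 13 (6.42) and 9 (6.49), so coarse cluster 1 was not among them either. Finer cluster 9 had a high share of G1 calls as well, with 9.09% S and 5.59% G2M, and had a median of 6631 UMIs and a ribosomal protein share of 23.7%.

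**Figure D1:**
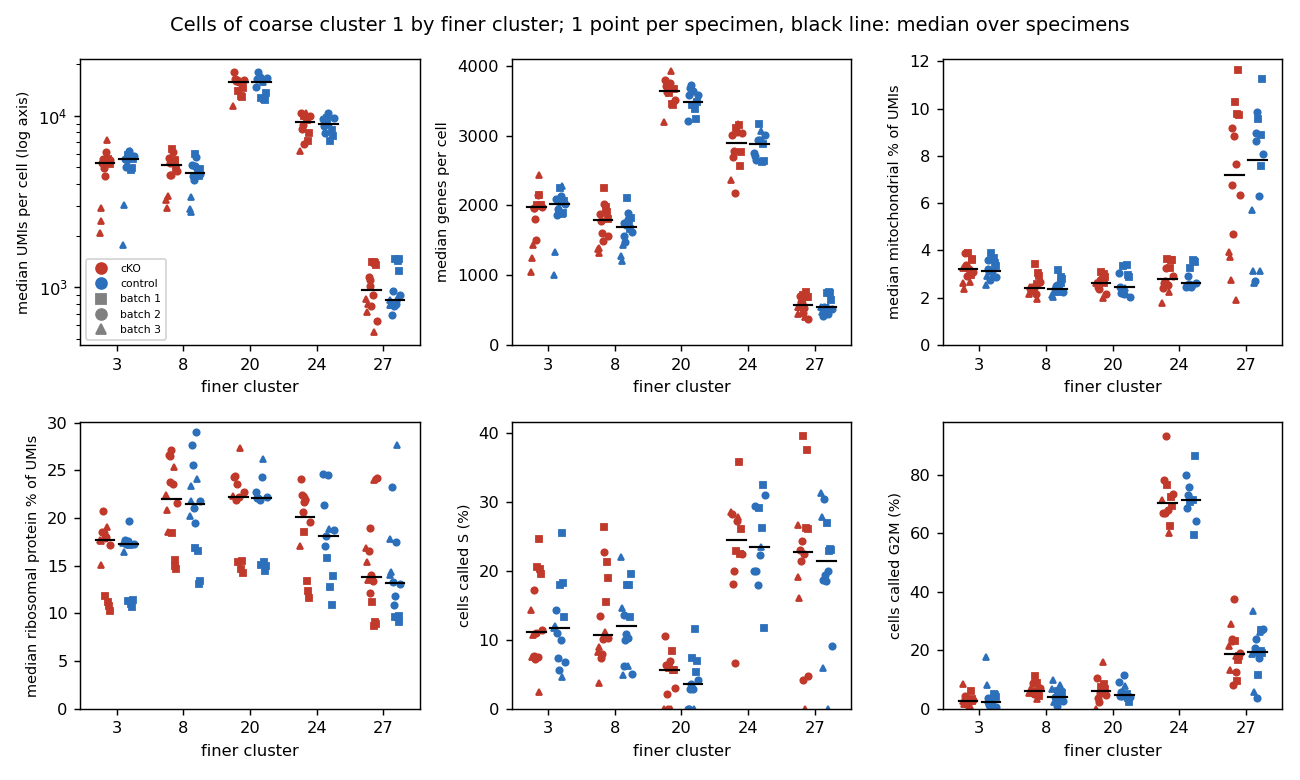
Each point is the value of 1 specimen over its coarse cluster 1 cells of a finer cluster (cKO red and left, control blue and right; shapes are batches; black lines are medians over specimens), for median UMIs (log axis), median genes, median mitochondrial and ribosomal protein percent, and percent called S and G2M. Finer cluster 24 stands apart in G2M calls (59.5% to 93.3%), finer cluster 20 in UMIs (11423 to 18076) and finer cluster 27 in its low UMIs (550 to 1473).

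Along gestation, the share of coarse cluster 1 in inter-implantation tissue was low on days 0 to 8 in both genotypes. The genotypes lay furthest apart at day 18, with 1 specimen per genotype and day. In cKO specimens it was 4.76% at day 0, 3.81% at day 5, 4.31% at day 8, 10.4% at day 12, 16.1% at day 14, 16.6% at day 16 and 10.2% at day 18. In control specimens it was 3.23%, 2.01%, 2.42%, 8.03%, 15.7%, 13.1% and 23.5% on the same days. The cKO share was thus highest at days 14 and 16 and the control share at day 18. The working description of a population that expands in late gestation was drawn from the control inter-implantation specimens. In cKO specimens the share was also higher on days 12 to 18 than on days 0 to 8, although it was lower at day 18 than at day 16. The control share was lower at day 16 than at day 14.

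Counted against all cells, day 18 was the day on which cKO inter-implantation tissue was the lower of the pair. There the share was 10.2% in cKO (exact 95% interval 8.86 to 11.7, counting error only), against 23.5% in control (22.3 to 24.7), a ratio of 0.434 with 1 specimen per genotype. On the other pregnant days and at day 0 the cKO share was higher, with ratios between 1.03 at day 14 and 1.90 at day 5. The day 18 cKO specimen had 1873 cells with a median of 6122 UMIs, against 4726 cells with 9040 UMIs in control. Coarse cluster 0 took 36.5% of that cKO specimen, against 49.9% of the control specimen. Among cells outside coarse cluster 0, the population made up 16.1% in cKO at day 18, against 46.9% in control. By that measure cKO was also the lower at day 14 (23.2%, against 28.1% in control) and day 16 (23.2%, against 32.4%). It was the higher at days 0, 5, 8 and 12.

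**Figure D2:**
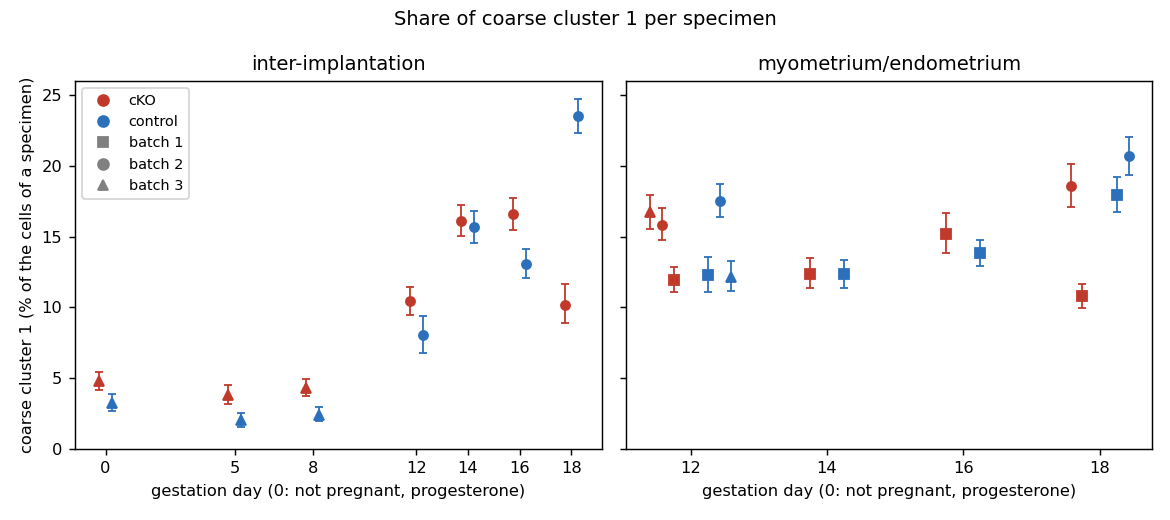
Share of coarse cluster 1 among the cells of each specimen (y, percent) by gestation day (x), with inter-implantation specimens at left and myometrium/endometrium at right; cKO is red and left of control in blue, shapes are batches and bars are exact 95% intervals (counting error only). Inter-implantation shares lie below 5% on days 0 to 8 in both genotypes and separate at day 18, at 10.2% in cKO and 23.5% in control.

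A test on gestation day was run in cKO specimens, since the rise that chose the population was that of control specimens, although cells of both genotypes were clustered together. Across 6 pregnant cKO inter-implantation specimens the share rose by 0.17 per day on the log2 scale (SE 0.05, adjusted p = 0.0385, edgeR). Of 16 coarse clusters tested, 5 passed (31.2%), of which 2 were higher with day (12.5%) and 3 lower (18.8%). With batch as a covariate the slope was 0.012 (adjusted p = 0.929, edgeR), and within batch 2 alone, days 12 to 18, it was -0.00044 (adjusted p = 0.997, edgeR). Leaving out any of the specimens of days 5, 8, 12, 14 or 16 also ended the call, at adjusted p between 0.0513 and 0.244 (edgeR), and only without day 18 did it still pass (0.22 per day, adjusted p = 0.00746, edgeR).

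Days 5 and 8 differ from days 12 to 18 in batch. Batch and the step from early to late days thus cannot be told apart in inter-implantation tissue. The batch 3 specimens were myometrium/endometrium of day 12, with 16.7% in cKO and 12.2% in control, and inter-implantation tissue of days 0 to 8, with 2.01% to 4.76%. Site and day both differ between these, and the part of batch was not tested. Member cells were also shallower on the early days. Their specimen medians were 4347 to 7188 UMIs on days 12 to 18, against 2313 to 3112 on days 0 to 8. In the batch 3 myometrium/endometrium specimens of day 12 they were 7530 UMIs in cKO and 6265 in control. The part of depth in the share was not tested.

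The slopes of the genotypes are set side by side as a description, since the control slope is the one that chose the population. In an interaction fit over inter-implantation tissue the difference of slopes, cKO minus control, was -0.12 per day on the log2 scale (SE 0.06, edgeR). Within batch 2 alone it was -0.22 per day, with coarse cluster 0 left out of the total it was -0.19, and without the day 18 cKO specimen it was -0.068. In that fit none of 18 coarse clusters passed (0%), 3 reached an unadjusted p under 0.05 in edgeR, DESeq2 called 4 and limma 0. Nothing is read from these calls for coarse cluster 1.

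In myometrium/endometrium the population was present at 10.8% to 20.7% of every specimen. At day 12 the cKO specimens of batches 1, 2 and 3 held 11.9%, 15.9% and 16.7%, against 12.3%, 17.5% and 12.2% in control. At day 14 the shares were 12.39% in cKO and 12.33% in control, and at day 16 they were 15.2% in cKO and 13.8% in control. At day 18 the cKO specimens of batches 1 and 2 held 10.8% and 18.6%, against 17.97% and 20.7% in control. Both control specimens of day 18 were above all 3 of day 12, whereas the cKO specimens of these days overlapped. The slope over 7 cKO specimens was 0.0016 per day (SE 0.07, adjusted p = 0.982, edgeR). None of 17 coarse clusters passed (0%), although 1 reached p under 0.05 in edgeR before adjustment. DESeq2 and limma called 0 there.

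The sites could be set against each other within a batch only at days 12 and 18 of batch 2. There the population took 15.9% (cKO) and 17.5% (control) of myometrium/endometrium at day 12, against 10.4% (cKO) and 8.03% (control) of inter-implantation tissue. At day 18 it took 18.6% (cKO) and 20.7% (control) of myometrium/endometrium, against 10.2% (cKO) and 23.5% (control) of inter-implantation tissue. The log2 difference, myometrium/endometrium minus inter-implantation, was 0.55 in edgeR (SE 0.34, adjusted p = 0.496), short of the threshold. None of 16 coarse clusters passed (0%), 1 reached an unadjusted p under 0.05 in edgeR, and 1 was called by DESeq2 and 0 by limma. Without the day 18 control inter-implantation specimen the log2 difference was 0.89 (adjusted p = 0.0531, edgeR). The control inter-implantation shares in this comparison are among those that chose the population, so its p-values are not independent of that choice.

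Over all pregnant specimens no difference in the share of the population passed between genotypes. Its mean was 12.5% ± 4.64 in the 13 cKO specimens and 13.2% ± 6.33 in the 13 control specimens (SD). With site and day in the fit, edgeR gave a log2 difference of 0.07 (SE 0.18, adjusted p = 0.818), opposite in sign to the difference of the means. No coarse cluster of 17 passed (0%), 2 reached an unadjusted p under 0.05 in edgeR, DESeq2 called 1 and limma 0. In inter-implantation tissue the mean was 10.2% ± 5.50 in cKO and 10.8% ± 8.31 in control (SD, n = 6 each). With day in the fit, edgeR gave a log2 difference of 0.23 (SE 0.39, adjusted p = 0.926), again opposite in sign to the means. The cKO share was the higher on 5 of 6 pregnant days, all but day 18. There 3 of 18 coarse clusters passed (16.7%), and coarse cluster 1 was not among them. The control inter-implantation shares that chose the population enter these fits, the test between sites below and the finer cluster fits between genotypes. Their p-values are thus not independent of that choice.

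The inter-implantation difference depended on which days entered. Over days 5 to 16, a choice made after the data were seen, the log2 difference was 0.50 (adjusted p = 0.391, edgeR), and within batch 2 alone it was -0.10 (adjusted p = 0.915, edgeR). In myometrium/endometrium the mean was 14.5% ± 2.85 in cKO and 15.3% ± 3.44 in control (SD, n = 7 each), for which edgeR gave a log2 difference of -0.06 (SE 0.21, adjusted p = 0.939). The cKO share was the higher in 3 of 7 batch pairs there. None of 17 coarse clusters passed (0%), and 0 reached an unadjusted p under 0.05 in edgeR, with 0 called by DESeq2 or limma. A test of the sites' genotype effects against each other, myometrium/endometrium minus inter-implantation, gave -0.29 on the log2 scale (SE 0.37, adjusted p = 0.896, edgeR), short of the threshold, while 1 of 17 coarse clusters passed (5.88%).

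The make-up of the population moved along gestation in inter-implantation tissue. Finer cluster 3 averaged 40.0% of the members on days 12 to 18, against 22.2% on days 0 to 8. Finer cluster 8 averaged 24.7% of the members on days 12 to 18, against 46.8% on days 0 to 8. Finer cluster 27, the shallow one, averaged 9.56% on days 12 to 18, against 20.2% on days 0 to 8. Finer cluster 24 averaged 12.8% and finer cluster 20 averaged 10.8% on the later days, against 5.14% and 5.08% on the earlier ones. These averages are over 8 later specimens of batch 2 and 6 earlier ones of batch 3, so day and batch cannot be told apart in them either. In myometrium/endometrium, which held no earlier day, finer cluster 3 averaged 38.2% ± 12.5 (SD, n = 14) of the members and finer cluster 8 averaged 28.0% ± 10.5 (SD, n = 14).

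**Figure D3:**
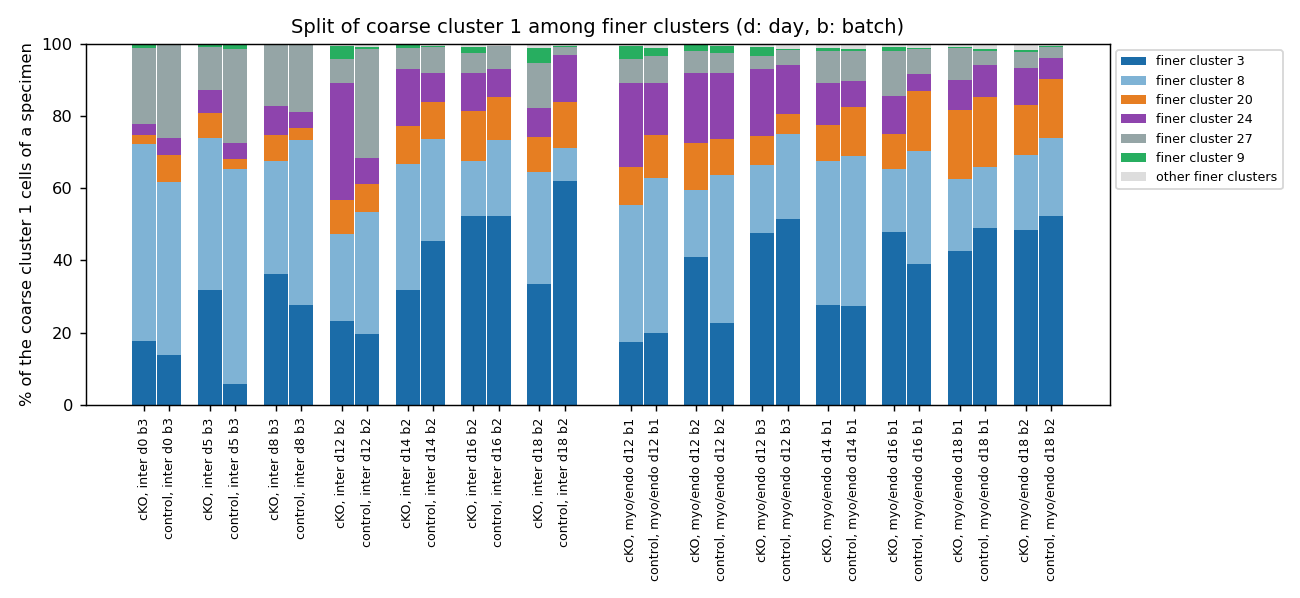
Stacked bars give the percent of coarse cluster 1 cells that fell in each finer cluster, 1 bar per specimen, with cKO left of its control for each site, day and batch. Finer cluster 8 (light blue) runs from 31.3% to 59.4% in inter-implantation specimens of days 0 to 8. That range overlaps those of later days and of myometrium/endometrium. Finer cluster 3 (dark blue) reaches 61.9% in the day 18 control inter-implantation specimen.

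As a share of all cells of a specimen, finer cluster 3 carried most of the day 18 contrast in inter-implantation tissue. In cKO specimens it took 0.838% at day 0, 1.21% at day 5, 1.56% at day 8, 2.41% at day 12, 5.12% at day 14, 8.68% at day 16 and 3.42% at day 18. In control specimens it took 0.447%, 0.116%, 0.671%, 1.58%, 7.09%, 6.85% and 14.6%. The cKO specimens were the higher on 4 of 6 pregnant days, and the order turned at days 14 and 18. Of the difference of -13.3 percentage points in the whole population at day 18, cKO minus control, finer cluster 3 made up -11.1 points.

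The other finer clusters were smaller and followed different courses. Finer cluster 8 reached its highest inter-implantation share at day 14 in both genotypes, with 5.63% in cKO and 4.47% in control. At day 18 it was at 3.15% in cKO and 2.16% in control, so it did not share the lower cKO value of finer cluster 3. Finer cluster 20 was at 2.28% in cKO and 1.55% in control at day 16, and at 1.01% in cKO and 2.98% in control at day 18. Finer cluster 27 was at 0.674% in cKO and 2.43% in control at day 12, where the control specimen had the fewest cells of all specimens. In that control specimen 23.9% of members had fewer than 1000 UMIs, against 2.24% in its cKO counterpart.

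**Figure D4:**
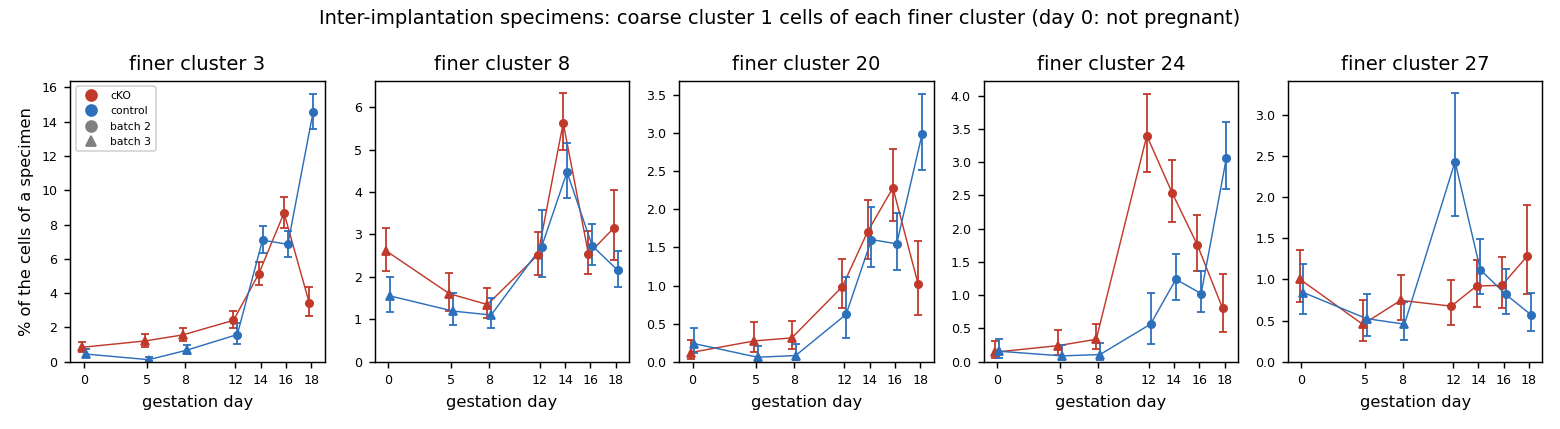
For inter-implantation specimens, the share of all cells of a specimen (y, percent) that were coarse cluster 1 cells of finer clusters 3, 8, 20, 24 and 27 is plotted against gestation day (x), with cKO in red, control in blue, shapes for batches and exact 95% intervals. At day 18 finer cluster 3 stands at 3.42% in cKO and 14.6% in control, and at day 12 finer cluster 24 stands at 3.40% in cKO and 0.565% in control.

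Slopes of the finer clusters on day were tested in cKO inter-implantation specimens over all cells of each finer cluster. None of the 6 passed in edgeR, with adjusted p of 0.0910 for finer cluster 3 (0.20 per day), 0.0684 for finer cluster 20 (0.26 per day) and 0.0599 for finer cluster 9 (0.37 per day). Among all 47 finer clusters tested 3 passed (6.38%). DESeq2 called these 3 of the 6, among 14 of all 47 finer clusters. In limma finer cluster 9 was called, among 5 of 47. In the cKO myometrium/endometrium slope none of the 6 passed either, while 2 of 49 finer clusters did (4.08%), both higher with day. In inter-implantation tissue the slope of finer cluster 24 over all pregnant days was 0.22 per day (adjusted p = 0.331, edgeR), and within batch 2 it was -0.33 per day (adjusted p = 0.113, edgeR).

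For the finer clusters the difference of slopes between genotypes is likewise a description, because the control slope that chose the population is made up of their cells. For finer cluster 3 it was -0.31 per day, cKO minus control (SE 0.09, edgeR), over all pregnant inter-implantation days, and -0.30 with batch as a covariate. For finer cluster 24 it was -0.68 per day within batch 2 alone, which rests on 8 specimens. None of 48 finer clusters passed over all pregnant days (0%), 9 reached an unadjusted p under 0.05 in edgeR, DESeq2 called 5 and limma 0. For finer cluster 9, which lies mostly outside the population, it was 0.28 per day with batch as a covariate.

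Finer cluster 24, the one with most G2M calls, took a larger share of the members in cKO than in control in more site and day strata than any other finer cluster. In inter-implantation tissue it made up 3.02% of cKO members at day 0, 6.35% at day 5, 7.82% at day 8, 32.6% at day 12, 15.8% at day 14, 10.6% at day 16 and 7.85% at day 18. In control members it made up 4.88%, 4.35%, 4.44%, 7.04%, 7.91%, 7.84% and 13.1%. The cKO specimens were the higher on all pregnant days but day 18. In day 12 myometrium/endometrium of batches 1, 2 and 3 it made up 23.3%, 19.3% and 18.5% of cKO members, against 14.2%, 18.4% and 13.6% of control members.

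On the later days of myometrium/endometrium finer cluster 24 was lower in both genotypes. It made up 11.6% of cKO and 7.30% of control members at day 14, and 10.6% of cKO and 4.68% of control members at day 16. At day 18 it made up 8.29% and 10.4% of cKO members in batches 1 and 2, against 8.94% and 5.77% of control members. Over both genotypes it averaged 8.44% ± 2.43 (SD, n = 8) on days 14 to 18, against 17.9% ± 3.57 (SD, n = 6) at day 12, and the ranges did not overlap, at 4.68% to 11.6% and 13.6% to 23.3%.

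Over all pregnant specimens finer cluster 24 averaged 14.1% ± 7.60 (SD, n = 13) of cKO members and 9.04% ± 4.41 (SD, n = 13) of control members, and cKO was the higher in 9 of 10 site and day strata. The mean difference over strata was 5.35 percentage points (exact permutation test, two-sided, p = 0.0148, adjusted over the 6 finer clusters p = 0.0652), which did not pass. With the genotype labels exchanged only within batch pairs the difference was 5.03 points and passed (adjusted p = 0.0469, exact permutation). Without either day 18 inter-implantation specimen it was 6.52 points and passed (adjusted p = 0.00313, exact permutation). Without either day 12 inter-implantation specimen it was 3.10 points (adjusted p = 0.130, exact permutation). Leaving out the batch 2 cKO myometrium/endometrium specimen of day 12 also let it pass (5.40 points, adjusted p = 0.0488, exact permutation).

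**Figure D5:**
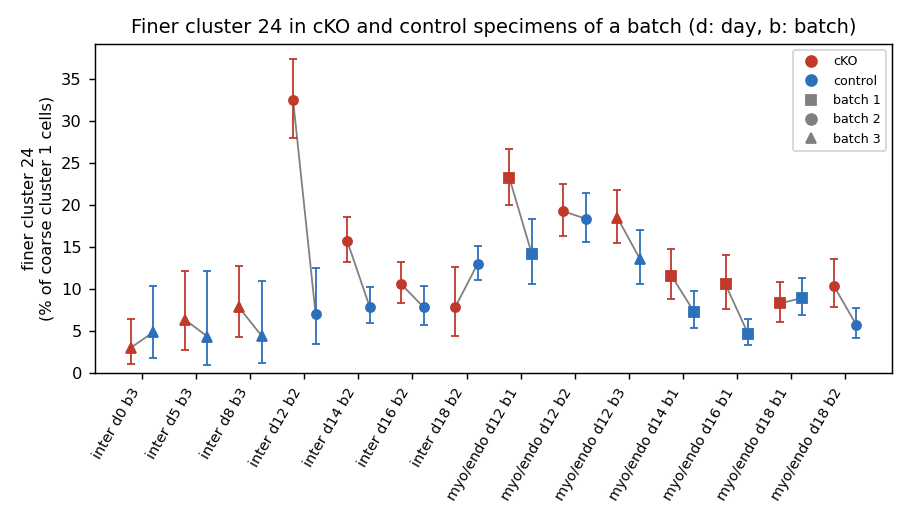
The percent of coarse cluster 1 cells that fell in finer cluster 24 (y) is shown for cKO (red, left) and control (blue, right) specimens of the same site, day and batch (x), joined by grey lines, with exact 95% intervals and shapes for batches. The widest pair is day 12 inter-implantation, at 32.6% in cKO and 7.04% in control, and the day 18 inter-implantation pair has the reverse order, at 7.85% in cKO and 13.1% in control.

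Counted against all cells of a specimen, finer cluster 24 gave a log2 difference of 0.66 between cKO and control (SE 0.30, unadjusted p = 0.0395, adjusted p = 0.302, edgeR). Among all 51 finer clusters tested 1 passed (1.96%), and it was none of the 6. In inter-implantation tissue alone the log2 difference was 0.94 (adjusted p = 0.327, edgeR), where 2 of 48 finer clusters passed (4.17%), none of them among the 6. At day 12 of that site finer cluster 24 took 3.40% of cKO cells (exact 95% interval 2.85 to 4.02), against 0.565% of control cells (0.271 to 1.04). At day 18 it took 0.801% of cKO cells (0.449 to 1.32), against 3.07% of control cells (2.59 to 3.60).

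Finer cluster 9, most of whose cells lie in coarse cluster 5, took a larger mean share of the members in cKO specimens. It averaged 1.65% ± 1.39 (SD, n = 13) of cKO members and 0.674% ± 0.675 (SD, n = 13) of control members, a mean difference of 1.07 points (adjusted p = 0.0652, exact permutation), which did not pass. Counted over all of its cells, finer cluster 9 did not pass in edgeR over all pregnant specimens, where cKO exceeded control by 1.04 log2 units (adjusted p = 0.209). Myometrium/endometrium alone had a smaller cKO excess of 0.39 log2 units, which edgeR did not call either (adjusted p = 0.977). In inter-implantation specimens edgeR gave a log2 difference of 1.96 (SE 0.58, adjusted p = 0.0591). It passed in DESeq2 (adjusted p = 0.00121), which called 8 of 48 finer clusters there, and in limma (adjusted p = 0.0496), which called 5 of 48. It also passed within batch 2 alone (2.73, adjusted p = 0.000317, edgeR). Of 12 fits that each left out 1 specimen 4 passed, those without a day 5 or day 8 specimen (adjusted p between 0.0129 and 0.0272, edgeR). Among the other fits adjusted p ran up to 0.212 (edgeR). Only 143 of its 3584 cells were members, so these fits mostly describe cells outside coarse cluster 1.

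The other finer clusters did not pass between genotypes. Finer cluster 3 averaged 37.1% ± 10.7 (SD, n = 13) of cKO members and 36.5% ± 17.0 (SD, n = 13) of control members (adjusted p = 0.920, exact permutation). Finer cluster 8 averaged 27.1% ± 9.48 in cKO and 32.1% ± 13.8 in control (SD, n = 13 each; adjusted p = 0.513, exact permutation) and was lower in cKO in 7 of 10 strata. Finer cluster 20 averaged 10.9% in both genotypes, with SDs of 3.31 in cKO and 5.09 in control (n = 13 each). Finer cluster 27 averaged 8.53% ± 4.01 in cKO and 10.1% ± 9.06 in control (SD, n = 13 each; adjusted p = 0.791, exact permutation).

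The measures of the member cells did not pass between genotypes either. Median UMIs averaged 5633 ± 1508 in cKO and 5248 ± 1334 in control specimens (SD, n = 13 each; adjusted p = 0.615, exact permutation). The mitochondrial share averaged 2.91% ± 0.405 in cKO and 2.84% ± 0.366 in control (SD, n = 13 each; adjusted p = 0.651, exact permutation). The ribosomal protein share averaged 18.1% ± 3.97 in cKO and 18.4% ± 4.14 in control (SD, n = 13 each; adjusted p = 0.770, exact permutation). S calls averaged 14.1% ± 5.61 in cKO and 12.3% ± 4.39 in control (SD, n = 13 each; adjusted p = 0.615, exact permutation).

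G2M calls of the members did not pass either. They averaged 15.4% ± 5.39 of cKO members and 11.98% ± 4.23 of control members (SD, n = 13 each), higher in cKO in 9 of 10 strata (p = 0.0921, adjusted p = 0.552, exact permutation). Their order did not always go with that of finer cluster 24. At day 18 of inter-implantation tissue G2M calls covered 14.7% of cKO and 11.4% of control members, where finer cluster 24 was lower in cKO. At day 5 they covered 10.3% of cKO and 20.3% of control members, where finer cluster 24 was higher in cKO. Without either day 5 inter-implantation specimen, the control of which had 69 member cells, the difference was 4.94 points and passed (adjusted p = 0.0133, exact permutation).

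The measures of the members moved with batch as well. The ribosomal protein share of members ran from 11.6% to 16.3% over the 8 specimens of batch 1, against 18.1% to 24.8% over the 12 of batch 2 and 16.5% to 22.6% over the 8 of batch 3. S calls ran from 13.3% to 23.0% in batch 1, against 7.42% to 18.9% in batch 2 and 7.01% to 22.8% in batch 3. The mitochondrial share ran from 2.93% to 3.60% in batch 1, against 2.54% to 2.96% in batch 2 and 2.23% to 2.72% in batch 3. Batch 1 thus lay below both other batches in ribosomal protein share, while the ranges of S calls overlapped.

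Site and day could be held fixed in myometrium/endometrium of days 12 and 18. At day 12 the ribosomal protein share of members was 16.3% (cKO) and 15.1% (control) in batch 1, against 20.1% (cKO) and 24.8% (control) in batch 2 and 20.9% (cKO) and 18.8% (control) in batch 3. At day 18 it was 11.8% (cKO) and 12.3% (control) in batch 1, against 18.6% (cKO) and 18.8% (control) in batch 2. Batch 1 was the lowest in both genotypes on both days. Between sites within batch 2 at day 12 the values were 20.1% (cKO) and 24.8% (control) in myometrium/endometrium, against 23.0% (cKO) and 24.1% (control) in inter-implantation tissue. With 1 specimen per genotype, batch and day, these differences were not tested.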

How the data were processed

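The series profiled uterine tissue of Kdm6b cKO and control mice by droplet single-cell RNA sequencing of hashed pools. Per the labels' protocols, 125000 cells per specimen were multiplexed, 340000 were loaded and samples had at least 70% viable cells. The submitters' processing notes name Cell Ranger and Seurat, with mm10 as the build, and no version or setting. The table deposited by the authors gives per cell the UMI count and gene count as whole numbers, not normalized. The authors also deposited, for each cell, which percent of its UMIs came from mitochondrial (at most 20%) and ribosomal protein genes. S and G2M scores, principal component scores, phase calls and cluster numbers were also made by the authors and deposited. Cell filters, the assignment of cells to specimens and any doublet removal were the authors', by rules that the labels do not state, and doublets were not called again.

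Cells were summed per specimen over its pools. Cells per cluster were tested in edgeR 4.0.16 (R 4.3.3) by the quasi-likelihood F test with all cells of a specimen as its library size. A cluster entered with an average of at least 10 cells per specimen, and a Benjamini-Hochberg adjusted p under 0.05 over all clusters tested counted as a call. All 19 coarse and 61 finer clusters entered before that filter. SEs are fold changes on the log2 scale over the root of the F statistic. Finer cluster fits use all cells of a finer cluster, whereas shares and splits in the text count only its cells inside coarse cluster 1. Genotype fits had the site-by-day stratum, or the day within a site, as covariate. Splits and cell measures of the 26 pregnant specimens were compared by two-sided exact permutation of genotype labels within the 10 strata (30720 arrangements, smallest p 6.51e-05), each adjusted over its 6 tests, in specimens with at least 20 member cells, which was all of them. Exact intervals are 95% Clopper-Pearson and cover counting error only. Depth is given in UMIs, and shares rest on 1769 to 5720 cells per specimen.

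The cKO and control specimens of a stratum are paired by the experimental batch that the annotation gives them, so a fit with batch pairs as replicate block was an alternative. DESeq2 1.42.0, limma 3.58.1 on logit shares with 0.5 cells added, TMM factors, no filter, cells of at least 1000 UMIs, totals without coarse cluster 0, membership by finer clusters, batch terms and leaving out each specimen were the others. The statistics were tested on simulated data. Finer clusters are named where they hold at least 1% of the members, and other coarse clusters where they are next to the population or share finer clusters with it. The population, its finer clusters and the comparisons were chosen with earlier results of these data known.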

Additional observations from a re-analysis of the deposited data

Results flagged for a closer look

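In 54 groups of values searched for 1 value far from the others, 3 were found, and chance alone gives about 1 group in 20. A group held 1 measure over the 6 or 7 pregnant specimens of a site and genotype, or over the 7 pools. The cKO inter-implantation specimen of day 12 had 32.6% of its coarse cluster 1 cells in finer cluster 24, against 6.35% to 15.8% in the other pregnant cKO specimens of that site. The same specimen had 18.9% of its coarse cluster 1 cells called S, against 7.85% to 11.7% in those others. The batch 1 cKO myometrium/endometrium specimen of day 12 had 25.6% of its coarse cluster 1 cells called G2M, against 11.0% to 16.8% in the other cKO specimens of that site. It is also the specimen whose repeat lanes differed most in the share of the population, at 10.2% and 14.3%. No cause was tested for these values.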

How the results depend on the processing

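For the coarse share between genotypes within inter-implantation tissue, the log2 difference was -0.10 within batch 2 alone; within myometrium/endometrium it was 0.0025 with coarse cluster 0 left out of the total and 0.037 without batch 1. The cKO slope on day in inter-implantation tissue was 0.012 with batch as covariate and -0.00044 within batch 2 alone; in myometrium/endometrium it was -0.0029 in limma and -0.011 without coarse cluster 0 in the total. The difference of slopes between genotypes, which reuses the control slope that chose the population, was -0.19 without coarse cluster 0 in the total. Of the coarse clusters called, the genotype fit gave 1 in DESeq2, the inter-implantation genotype fit gave 1 with TMM factors, without coarse cluster 0 in the total and over days 5 to 16, and the genotype-by-site fit gave 0 without batch 1. The cKO slope fit in inter-implantation tissue gave 8 in DESeq2 and 8 in limma, and 0 with batch as covariate and within batch 2. The genotype-by-day fit gave 4 in DESeq2, 1 without coarse cluster 0 in the total and 2 with batch as covariate. The site fit gave 1 with no filter, in DESeq2 and without coarse cluster 0 in the total.

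Of the 6 finer clusters, none was called in the fits as reported. For settings other than DESeq2 and limma, the calls over all finer clusters are not set beside those listed here. Nothing is read from such calls for the population. Of single calls under alternatives, that of finer cluster 9 appeared between genotypes in DESeq2 (1 call), between genotypes in inter-implantation tissue in DESeq2, in limma and within batch 2 (1 each), and in the cKO myometrium/endometrium slope with batch as covariate (1). Over all finer clusters DESeq2 called 4 of 51 between genotypes. In inter-implantation tissue alone DESeq2 called 8 of 48 and limma 5 of 48. In the cKO inter-implantation slope 3 were called in DESeq2 (finer clusters 3, 9 and 20), and finer cluster 9 alone in limma and with cells of at least 1000 UMIs (1 each). Over all 47 finer clusters of that slope DESeq2 called 14 and limma 5. In the genotype-by-day fit, not independent of the choice of population, finer cluster 3 was called in DESeq2 and without coarse cluster 0 in the total (1 each), 2 (finer clusters 3 and 9) with batch as covariate, and finer cluster 24 within batch 2 (1). Signs turned between genotypes in inter-implantation tissue for finer cluster 3 within batch 2 (-0.38), finer cluster 8 with TMM factors (-0.051) and finer cluster 27 with TMM factors (-0.15), without coarse cluster 0 in the total (-0.057) and over days 5 to 16 (-0.040). The cKO slope turned for finer cluster 8 (-0.043 with batch as covariate, -0.031 within batch 2) and finer cluster 24 (-0.25 and -0.33). The genotype-by-day term turned for finer cluster 8 (0.0013 with cells of at least 1000 UMIs, 0.069 within batch 2) and finer cluster 27 (-0.0078 without coarse cluster 0 in the total, -0.054 with median UMIs as covariate).

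In the split of the members, finer cluster 3 gave -0.053 points without batch 1, and finer cluster 20 gave 0.0045 points with the replicate block and 1.22 without batch 1. Finer cluster 24 passed with the replicate block (5.03 points), which changed no other call. The ribosomal protein share differed by 0.0856 points with specimen means. Leaving out each specimen in turn gave coarse log2 differences of -0.11 to 0.051 for genotype within myometrium/endometrium, and cKO slopes of 0.15 to 0.22 in inter-implantation tissue and -0.053 to 0.043 in myometrium/endometrium. Coarse calls then ran from 1 to 2 for genotype in inter-implantation tissue, from 0 to 1 for genotype-by-site, from 0 to 5 for the cKO inter-implantation slope, and from 0 to 1 for genotype-by-day and for site. Calls among the 6 finer clusters ran from 0 to 1 for genotype in inter-implantation tissue and from 0 to 3 for the cKO slope there. With every specimen in, 2 of 48 (4.17%) and 3 of 47 (6.38%) of all finer clusters passed in these edgeR fits. Counts over all finer clusters are not given for the fits without a specimen, so nothing is read from the calls among the 6. Single finer clusters turned sign for genotype in inter-implantation tissue (finer cluster 3, -0.059 to 0.85; finer cluster 27, -0.040 to 0.46) and genotype-by-day (finer cluster 8, -0.063 to 0.020; finer cluster 27, -0.013 to 0.16). Split differences ran from -2.39 to 3.65 points for finer cluster 3, 0.750 to 1.26 for 9, -0.627 to 0.643 for 20, 3.10 to 6.52 for 24 and -3.64 to 0.132 for 27. The ribosomal protein difference ran from -0.736 to 0.170 and that of G2M calls from 2.43 to 4.94 points. The causes were not tested. The slope in myometrium/endometrium within batch 2 alone could not be fitted.

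Most strata had 1 specimen per genotype, and in inter-implantation tissue no stratum was replicated. The genotype p-values there thus measure how the difference between cKO and control varied between days, not a spread between replicates. In the cKO slopes the spread is that of specimens around a line. All edgeR fits also share information on the spread between clusters. Day and batch coincide in inter-implantation tissue, and batch 1 holds no inter-implantation specimen. Without gene levels the population could not be named, cells could not be thinned to equal depth and free RNA could not be measured. Early inter-implantation specimens held as few as 69 member cells, so small finer clusters there rest on a handful of cells.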
